A study of Mus musculus with 15 samples.

Results

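A group of 10 genes of the α- and β-tubulin family were followed through the postnatal development of the mouse auditory nerve, the bundle of spiral ganglion axons and their glia that carries signals from the cochlea to the brainstem. The genes were Tubb3, Tubb2a, Tubb2b, Tubb4a, Tubb5, Tubb6, Tuba1a, Tuba1b, Tuba4a and Tuba8, taken by their symbols. All 10 of 10 were found among the 18536 genes of the deposited table, and all 10 passed the filter on low values. Bulk RNA sequencing covered 15 libraries, with 3 at each of 5 ages: P3 (P for postnatal day), P7, P14, P21 and adult. Each library held nerve dissected from both cochleae of 1 mouse. All groups carry the same tissue label and no treatment or engineered allele is named for any of them. The titles of the adult libraries begin with CTRL and those of the others with their age, and the labels do not say what CTRL stands for. The labels give neither strain nor sex, nor the age of the adults.

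Microtubules are hollow polymers of α- and β-tubulin dimers that serve as tracks for axonal transport and as the internal support of axons and glial processes. Each family has several genes, called isotypes, whose products are nearly alike over most of their length and differ chiefly in a short acidic tail at the carboxyl end. The tail lies on the outer surface of the microtubule, where it is the site of polyglutamylation and of the removal and return of a terminal tyrosine, and where motors and microtubule-associated proteins bind. In the nervous system growing neurons and mature neurons are known to use different sets of isotypes.

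The last 20 codons before the stop codon are shown because they encode most of this tail. They are given 5′ to 3′ on the coding strand, from the GENCODE M21 annotation of GRCm38 (mm10), with the glutamate codons (gaa and gag) in capitals. The 60 bases lie at chr8:123421620-123421679 on the plus strand for Tubb3 and at chr6:121226017-121226076 on the plus strand for Tuba8. On the minus strand they lie at chr13:34074471-34074530 for Tubb2a, chr13:34127474-34127533 for Tubb2b, chr17:57080693-57080752 for Tubb4a and chr17:35834985-35835044 for Tubb5. The stretch of Tuba4a lies at chr1:75215625-75215684 on the minus strand.
Tubb3: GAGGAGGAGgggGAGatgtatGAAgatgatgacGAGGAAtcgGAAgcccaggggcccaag
Tubb2a: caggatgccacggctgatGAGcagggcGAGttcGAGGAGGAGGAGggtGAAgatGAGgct
Tubb2b: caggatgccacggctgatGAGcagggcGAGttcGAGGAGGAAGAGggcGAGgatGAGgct
Tubb4a: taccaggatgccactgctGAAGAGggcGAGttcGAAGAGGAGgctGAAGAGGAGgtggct
Tubb5: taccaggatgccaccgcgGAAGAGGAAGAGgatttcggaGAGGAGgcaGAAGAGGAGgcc
Tuba4a: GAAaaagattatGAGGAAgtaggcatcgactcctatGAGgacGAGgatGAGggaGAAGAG
Tuba8: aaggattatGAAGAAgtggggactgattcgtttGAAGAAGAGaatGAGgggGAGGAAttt

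Tubb6, Tuba1a and Tuba1b are described by their values only. Each of the 7 stretches holds 8 or 9 glutamate codons among its 20. Those of Tubb2a and Tubb2b differ in 3 codons, and all 3 changes are synonymous. The last codon is the glutamate codon gag in Tuba4a and the phenylalanine codon ttt in Tuba8. Both thus encode α-tubulins that are made without the terminal tyrosine. Over the whole coding sequence Tuba1a and Tuba1b are 98.3% identical, Tubb2a and Tubb2b 96.5%, and Tuba4a and Tuba1a 84.8%. Tubb3 is closest to Tubb6 among the β-tubulin genes listed here, at 85.9%.

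This likeness bears on how reads could be assigned, and the authors' handling of reads that match several genes is not given in the sources used here. No 50-base window of the main transcript of Tubb3 or Tubb6 recurs in another gene, and 0.184% of those of Tubb4a and 0.115% of those of Tubb5 do. The share is 49.6% for Tubb2a and 39.3% for Tubb2b, mostly with each other, and 75.5% for Tuba1a and 83.1% for Tuba1b, most often with Tuba1c. Values of these 4 genes are therefore uncertain in how reads were split among them. For Tuba4a 47.7% of windows coincide with Stk16, a kinase gene that overlaps it on the opposite strand, and 14.7% of the windows of Tuba8 recur elsewhere, mostly in the overlapping gene Gm15856. Stk16 itself stood between 2313 and 3128 normalized counts in the 15 libraries, in which Tuba4a ranged from 2760 to 16482.

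Values are the authors' read counts divided by 1 size factor per library, called normalized counts below. The libraries held between 35250155 and 42258738 recovered reads, and a floor of 3 reads was worth between 2.53 and 3.65 normalized counts, a limit that covers counting error only. A gene was called at a limma adjusted p under 0.05, taken over the 16723 genes tested on the log2(value + 1) scale. The summed values were between 34812357 and 43724183 and were highest in adults. Scaling each library by its total of recovered reads (per-million scaling) gave a median log2 fold change over all genes of -0.27 for adult against P3, where it was -0.01 as deposited. For P14 against P7 it was -0.13 with this scaling and -0.02 as deposited, and for adult against P21 it was -0.11 and 0.000444. With that scaling 35.5% of the calls between adult and P3 were higher in adults, against 50.03% as deposited. The share of calls that were higher was 38.0% with it and 54.6% as deposited for P7 against P3, 38.7% and 50.5% for P14 against P7, and 38.2% and 51.3% for adult against P21. All 13 neuronal markers and all 8 Schwann cell markers were above 3 reads in every library, and fibroblast, bone and macrophage markers were present too. In this whole tissue, fewer cells of a type and less RNA per cell cannot be told apart. Eif2s3y, which lies on the Y chromosome, was at 26.7 normalized counts or less in 4 of the libraries, 1 at P14, 2 at P21 and 1 in adults, and at 1576 or more in the others, so sex runs partly along with age.

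Over the whole span, from P3 pups to adults, the set of tubulin isotypes turned over. Tubb3, Tubb4a, Tuba4a and Tuba8 rose, as did Tuba1b with the deposited scaling, while Tubb2a, Tubb2b, Tubb5, Tubb6 and Tuba1a fell. The log2 fold change was -3.46 for Tubb2b, 2.07 for Tubb4a and 2.15 for Tuba4a, and Tubb6 fell 9.17-fold. In counts, 5 of the 10 genes were higher in adults than at P3 and 5 were lower, where 68.7% of all genes tested were called, 34.4% higher and 34.3% lower. The libraries of adults and P3 did not overlap for any of the 10 genes, which was so for 76.4% of all genes. The median log2 fold change of the 10 was -0.21, against -0.01 over all genes. Across the 5 ages jointly, 10 of the 10 were called, as were 85.4% of all genes tested.

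**Figure D1:**
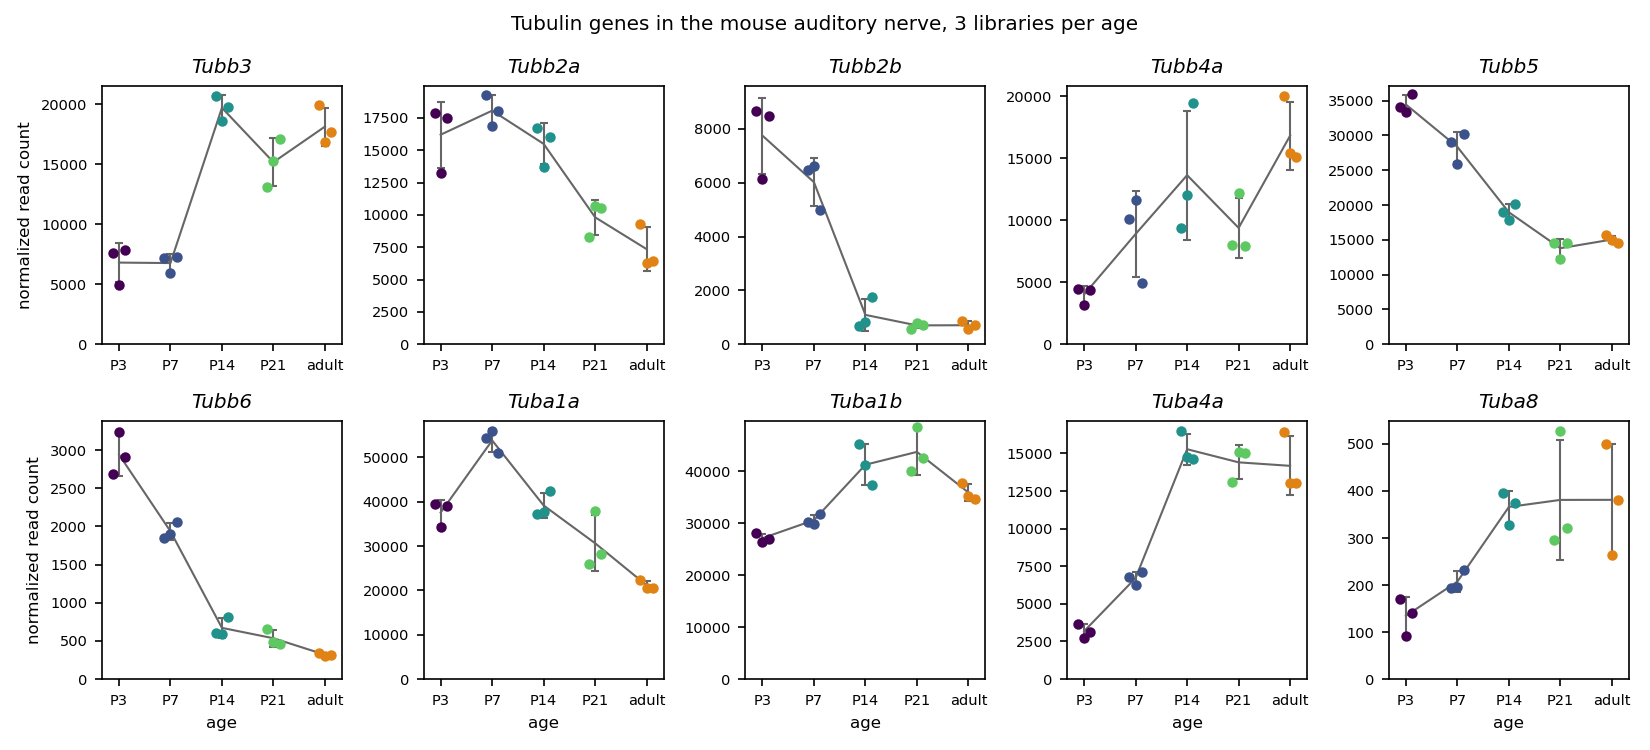
Normalized counts of the 10 tubulin genes (y axis, linear, from 0) against age (x axis); points are libraries, the line joins the means and bars are ± SD over 3 libraries. Tubb3 stands between 13109 and 20701 from P14 on and between 4974 and 7855 at P3 and P7, and Tubb2b falls to between 677 and 1762 at P14.

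Tubb3, the class III β-tubulin widely used as a marker of neurons, was low up to P7 and higher from P14 on. Its normalized counts were 7589, 4974 and 7855 at P3, 7152, 5909 and 7241 at P7, 20701, 18643 and 19776 at P14, 13109, 15269 and 17148 at P21, and 19904, 16853 and 17663 in adults. Every library from P14 on stood above every library of P3 and P7. Tubb3 averaged 19707 ± 1031 at P14 and 6767 ± 744 at P7 (SD, n = 3 each), a 2.92-fold rise (log2 fold change 1.55 ± 0.16 SE, limma adjusted p = 3.81e-06). No other neighbouring pair of ages was called for Tubb3. Its log2 fold change was 0.02 for P7 against P3, -0.38 for P21 against P14 with an adjusted p of 0.142 by limma, and 0.26 for adult against P21. Without P3 replicate 2 the P21 difference of Tubb3 passed at an adjusted p of 0.0496.

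Tubb4a, the class IVa β-tubulin of neurons and oligodendrocytes, rose in the first week and again after P21. Tubb4a stood at 4474, 3198 and 4370 at P3, 10108, 11613 and 4957 at P7, 9396, 12046 and 19450 at P14, 8021, 12167 and 7954 at P21, and 19981, 15392 and 15075 in adults. The libraries of P7 and P3 did not overlap, nor did those of adults and P21, but the 3 libraries of P7 and of P14 were spread widely. Tubb4a averaged 8892 ± 3491 at P7 and 4014 ± 709 at P3 (log2 fold change 1.07 ± 0.32 SE, limma adjusted p = 0.0232). Against P21, adults were higher by a log2 fold change of 0.86 ± 0.32 (limma adjusted p = 0.0376), at means of 16816 ± 2745 in adults and 9381 ± 2413 at P21. Over the whole span Tubb4a was higher in adults than at P3 by 2.07 ± 0.32 on the log2 scale (limma adjusted p = 5.55e-05). The P7 call was lost without P3 replicate 2, P7 replicate 4 or P7 replicate 5, at adjusted p-values of 0.0887, 0.0889 and 0.105. The adult against P21 call was lost with quantile normalization (adjusted p = 0.107), with per-million scaling (0.0636), with an Eif2s3y covariate (0.0728) and without any 1 of P21 replicates 1 and 3 and the adult replicates, where it was between 0.057 and 0.119.

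Tubb2b and Tubb2a, the class II β-tubulins of neurons, both on chromosome 13, both fell, but Tubb2b fell earlier and further. Tubb2b stood at 8665, 6130 and 8467 at P3, 6480, 6607 and 4985 at P7, 677, 835 and 1762 at P14, 584, 805 and 713 at P21, and 850, 556 and 717 in adults. The drop lay between P7 and P14: the highest P14 library was below the lowest P7 library, and the P14, P21 and adult libraries overlapped. Tubb2b averaged 1091 ± 586 at P14 and 6024 ± 902 at P7, a 5.98-fold fall (log2 fold change -2.58 ± 0.29 SE, limma adjusted p = 9.32e-06). The pseudogene Tubb2a-ps2, counted separately in the table, averaged 117 ± 52.2 at P14 and 583 ± 113 at P7 (log2 fold change -2.38 ± 0.32).

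Tubb2a was not called at P7 or P14 and was lower from P21 on. Its values were 17886, 13263 and 17457 at P3, 19283, 16853 and 18045 at P7, 16716, 13697 and 16053 at P14, 8276, 10665 and 10500 at P21, and 9327, 6306 and 6419 in adults. All P21 libraries lay below all P14 libraries, at means of 9814 ± 1334 at P21 and 15489 ± 1587 at P14 (log2 fold change -0.66 ± 0.16 SE, limma adjusted p = 0.0217). Adults were lower again than P21, at 7350 ± 1712 (log2 fold change -0.43 ± 0.16, limma adjusted p = 0.0392), with overlapping libraries. The P21 against P14 call of Tubb2a was lost in 5 of 28 alternatives, among them with only both ages in the fit (adjusted p = 0.0945) and without P14 replicate 1 (0.0615), P14 replicate 3 (0.0825) or P21 replicate 1 (0.0653). The adult against P21 call of Tubb2a was lost in 8 of 28 alternatives, among them without P7 replicate 6 (adjusted p = 0.0502), P21 replicate 2 (0.117), P21 replicate 3 (0.102), adult replicate 2 (0.147) or adult replicate 3 (0.136).

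Tubb5, the class I β-tubulin made by most cells, fell at each step up to P21. Tubb5 stood at 34101, 33322 and 35924 at P3, 29026, 25893 and 30156 at P7, 18934, 17852 and 20115 at P14, 14566, 12271 and 14570.1 at P21, and 15639, 14944 and 14553 in adults. No library overlapped between neighbouring ages until P21 and adults, which did overlap. The log2 fold change was -0.28 ± 0.08 SE for P7 against P3 (limma adjusted p = 0.0231), -0.58 ± 0.08 for P14 against P7 (7.94e-05) and -0.46 ± 0.08 for P21 against P14 (0.00523). Over the whole span Tubb5 was 2.29-fold lower in adults than at P3. The P7 call of Tubb5 was lost without P3 replicate 3 (adjusted p = 0.0851) or P7 replicate 5 (0.108), and the P21 call with only both ages in the fit (0.112).

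Tubb6, the class V β-tubulin, is a minor isotype that fell at 3 of the 4 steps. Tubb6 stood at 2685, 3237 and 2907 at P3, 1850.1, 1896 and 2062 at P7, 598, 597 and 819 at P14, 659, 491 and 455 at P21, and 338, 303 and 317 in adults. Adults lay below every earlier library. Its log2 fold change was -0.60 ± 0.14 SE for P7 against P3 (limma adjusted p = 0.00844), -1.54 ± 0.14 for P14 against P7 (1.98e-06) and -0.72 ± 0.14 for adult against P21 (0.00167). The P21 and P14 libraries of Tubb6 overlapped, with a log2 fold change of -0.33 and an adjusted p of 0.175 by limma, which was 0.0409 without P21 replicate 1.

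Tuba1a, the main α-tubulin of neurons that are growing axons, peaked at P7. Its values were 39416, 34211 and 39118 at P3, 54485, 56070.3 and 50992 at P7, 37237, 37792 and 42471 at P14, 25884, 37838 and 28197 at P21, and 22383, 20549.5 and 20549 in adults. The P7 libraries stood above all others and the adult libraries below all others. Tuba1a averaged 53849 ± 2598 at P7 and 37582 ± 2923 at P3 (log2 fold change 0.52 ± 0.12 SE, limma adjusted p = 0.00638). It was lower at P14, at 39167 ± 2875, than at P7 (log2 fold change -0.46 ± 0.12, limma adjusted p = 0.00608). Adults averaged 21160 ± 1059 and P21 30640 ± 6340 (log2 fold change -0.52 ± 0.12, limma adjusted p = 0.00384). With quantile normalization the rise of Tuba1a at P7 was not called (adjusted p = 0.0847). Without P21 replicate 2, whose 37838 was far above the other P21 libraries, P21 was lower than P14 at an adjusted p of 0.00305, against 0.0697 with it.

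Tuba1b, an α-tubulin made by most cells, rose at P14 and was lower in adults than at P21. Tuba1b stood at 28065, 26440.3 and 26903 at P3, 30256, 29842 and 31732 at P7, 45192, 41304 and 37364 at P14, 40016, 48626 and 42640 at P21, and 37799, 35270.4 and 34780 in adults. P14 did not overlap P7, and adults lay above P3 and below P21. Tuba1b averaged 41286 ± 3914 at P14 and 30610.1 ± 993 at P7 (log2 fold change 0.43 ± 0.09 SE, limma adjusted p = 0.00103). In adults it was lower than at P21 by -0.28 ± 0.09 (limma adjusted p = 0.0161) and higher than at P3 by 0.41 ± 0.09 on the log2 scale (limma adjusted p = 0.000829). The direction of the adult against P3 difference depends on scaling: it was -0.010 with quantile normalization (adjusted p = 0.923) and 0.15 with per-million scaling (adjusted p = 0.167). Quantile normalization also removed the P14 call (adjusted p = 0.084). The adult against P21 call was lost with only both ages in the fit (adjusted p = 0.0784), without P21 replicate 2 (0.0554) or adult replicate 3 (0.054).

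Tuba4a, an isotype whose last codon encodes glutamate and not tyrosine, rose in both of the first steps, and no later step was called. Its values were 3667, 2760 and 3129 at P3, 6787, 6275 and 7103 at P7, 16482, 14739 and 14627 at P14, 13101, 15114 and 15014 at P21, and 16452, 13041 and 13039 in adults. P3, P7 and P14 did not overlap, and P14, P21 and adults did. Tuba4a averaged 6722 ± 418 at P7 and 3185 ± 456 at P3 (log2 fold change 1.09 ± 0.11 SE, limma adjusted p = 3.88e-05). It averaged 15283 ± 1040 at P14, above P7 by 1.18 ± 0.11 (limma adjusted p = 2.59e-06). Both calls of Tuba4a held in all 26 alternatives run for each.

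Tuba8, a divergent α-tubulin, was the least abundant of the 10. Tuba8 stood at 171, 92.1 and 140 at P3, 193, 196 and 233 at P7, 395, 329 and 375 at P14, 295, 527 and 321 at P21, and 499, 264 and 380 in adults. All P7 libraries were above all P3 libraries, but this step was not called (limma adjusted p = 0.0865). It was called in 3 of 26 alternatives, among them quantile normalization (adjusted p = 0.0253). All P14 libraries were above all P7 libraries, and the P21 and adult libraries spread on both sides of P14. Tuba8 averaged 366 ± 34.0 at P14 and 207 ± 22.2 at P7 (log2 fold change 0.82 ± 0.27 SE, limma adjusted p = 0.0241). This call was lost without any 1 of P7 replicates 4 and 5 and P14 replicates 1 and 3 (adjusted p between 0.0573 and 0.0703). Adults were 2.82-fold above P3 (log2 fold change 1.49 ± 0.27, limma adjusted p = 0.000259).

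The steps between neighbouring ages differed in how many of the 10 genes moved. At P7 against P3, 3 rose (Tubb4a, Tuba1a and Tuba4a) and 2 fell (Tubb5 and Tubb6), where 28.1% of all genes were called, 15.4% higher and 12.8% lower. At P14 against P7, the interval in which mice begin to hear, 4 rose (Tubb3, Tuba1b, Tuba4a and Tuba8) and 4 fell (Tubb2b, Tubb5, Tubb6 and Tuba1a), against 48.1% of all genes, 24.3% higher and 23.8% lower. At P21 against P14, 0 rose and 2 fell (Tubb2a and Tubb5), where 9.29% of all genes were called, 3.29% higher and 6% lower. At adult against P21, 1 rose (Tubb4a) and 4 fell (Tubb2a, Tubb6, Tuba1a and Tuba1b), against 49.4% of all genes, 25.4% higher and 24.1% lower. These comparisons share libraries, since each middle age enters 2 of them. The libraries of both ages did not overlap for 7, 9, 3 and 4 of the 10 genes in the order of the steps, where this held for 54.2%, 61.4%, 24.4% and 56.1% of all genes.

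**Figure D2:**
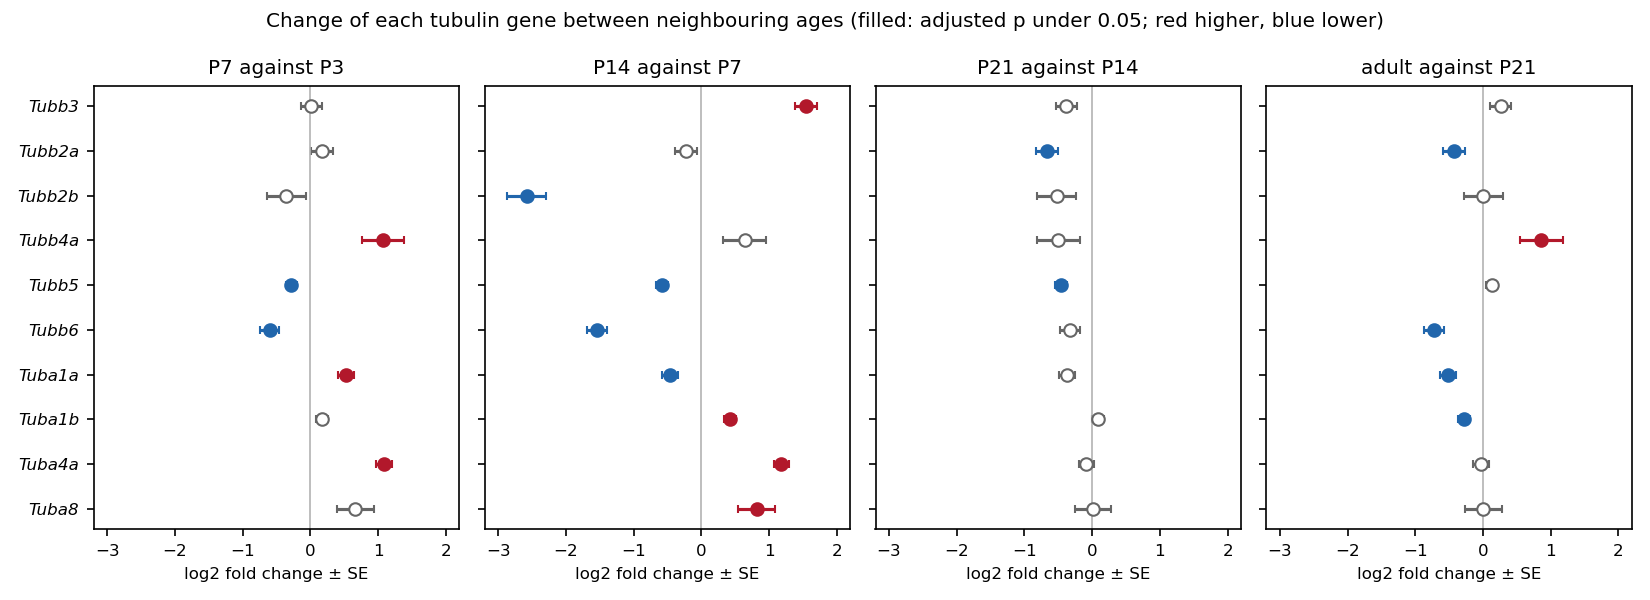
Log2 fold change ± SE (x axis) of each of the 10 tubulin genes (y axis) in 4 panels, 1 per pair of neighbouring ages, later minus earlier; filled points are called at an adjusted p under 0.05. At P14 against P7 the points run from -2.58 for Tubb2b to 1.55 for Tubb3, and at P21 against P14 the 2 filled points are Tubb2a at -0.66 and Tubb5 at -0.46.

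To compare levels between isotypes, each value was divided by the exon length of its gene and given as a share of its family, β (8 genes, with Tubb4b and Tubb1) or α (5 genes, with Tuba1c). Tubb5 and Tubb2a led the β family at P3, with per-kilobase shares of 30.9% ± 2.65 and 26.4% ± 1.52 (SD, n = 3). Below them came Tubb4b at 12.6% ± 1.12, Tubb2b at 10.5% ± 0.88, Tubb3 at 10.3% ± 1.45, Tubb4a at 4.71% ± 0.37 and Tubb6 at 4.50% ± 0.92. The libraries of Tubb2b and Tubb3 overlapped, as did those of Tubb4a and Tubb6, so the order within each pair was not larger than the spread.

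In adults the order of the β family was different. Tubb3 led at 28.8% ± 0.76 of the per-kilobase sum, followed by Tubb4b at 22.8% ± 0.95 and Tubb4a at 20.5% ± 1.14. Tubb5 held 14.0% ± 1.05 and Tubb2a 12.4% ± 1.47, with overlapping libraries, and Tubb2b and Tubb6 stood at 0.998% ± 0.128 and 0.501% ± 0.028. The share of Tubb3 was 25.5% ± 1.38 at P14 and 9.82% ± 1.12 at P7. Its P14 libraries overlapped those of Tubb4b, at 23.1% ± 2.84. At P21 Tubb4b had the highest mean share, 27.6% ± 2.85, with libraries that overlapped those of Tubb3 at 26.0% ± 2.85.

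In the α family Tuba1a and Tuba1b exchanged places. Tuba1a held 30.6% ± 0.29 of the per-kilobase sum in adults and 58.5% ± 2.21 at P7, and Tuba1b held 53.0% ± 0.81 in adults and 33.9% ± 1.46 at P7. At P14 their libraries overlapped, at 41.8% ± 3.77 for Tuba1a and 44.8% ± 3.31 for Tuba1b. Tuba4a held 14.2% ± 1.10 in adults and 3.14% ± 0.31 at P3, and Tuba8 0.593% ± 0.155 in adults and 0.205% ± 0.052 at P3. For every member the libraries of adults and P3 did not overlap in share, and each exact permutation test (two-sided) gave p = 0.1, the smallest that 3 against 3 allows, or 0.113 adjusted over the 26 share tests. A share is the same under any scaling that multiplies a library by 1 factor, and this holds for the larger share of Tuba1b too. Because most windows of Tuba1a and Tuba1b recur in related genes, the split between them rests on the authors' read assignment.

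**Figure D3:**
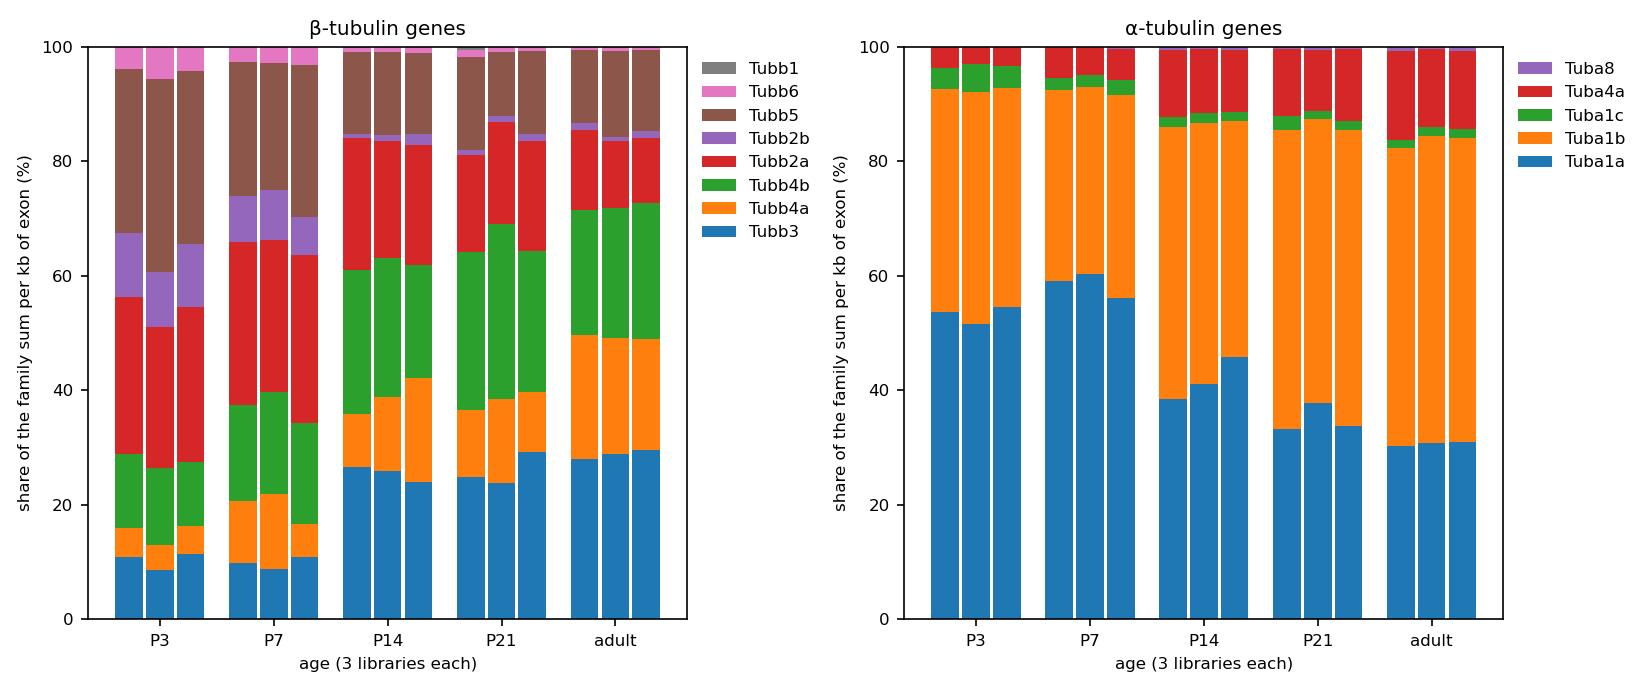
Share of each gene in the per-kilobase sum of its family (y axis, percent, stacked to 100) in each of the 15 libraries by age (x axis), β-tubulin genes left and α-tubulin genes right. Tubb3 and Tubb4a together widen from the base of the β bars with age while Tubb5, Tubb2b and Tubb6 narrow, and in the α bars Tuba4a reaches 14.2% in adults, against 3.14% at P3.

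With the deposited scaling, the summed level of each family in adults overlapped that at P3. Unlike a share, a sum depends on the scaling, and the sums were not recomputed with another. Per-million scaling moved the median log2 fold change over all genes to -0.27 for adult against P3. The β sum per kilobase averaged 38045 ± 3979 at P3, 40027 ± 1814 at P7, 44952 ± 3113 at P14, 33971 ± 3264 at P21 and 36674 ± 4011 in adults. The α sum per kilobase averaged 44281 ± 2294 at P3, 57844 ± 616 at P7, 58976 ± 1663 at P14, 54818 ± 7189 at P21 and 43439 ± 2591 in adults. The α libraries of P7, P14 and P21 lay above those of adults and P3 with the deposited scaling.

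Ratios of isotypes within a library were also taken, since they do not depend on a factor that multiplies the library. They rest on the same values as the shares, and a ratio of Tuba1b to Tuba1a was not among them. The log2 ratio of Tuba4a to Tuba1a averaged -0.59 ± 0.12 in adults and -3.57 ± 0.12 at P3, a 7.90-fold difference. That of Tuba4a to Tuba1b averaged -1.35 ± 0.13 in adults and -3.10 ± 0.16 at P3, and that of Tuba8 to Tuba1a averaged -5.84 ± 0.41 in adults and -8.17 ± 0.35 at P3. The log2 ratio of Tubb2a to Tubb2b was 3.37 ± 0.19 in adults and 1.07 ± 0.04 at P3, and it was already 3.95 ± 0.72 at P14, against 1.59 ± 0.25 at P7. The log2 ratio of Tubb4a to Tubb3 was -0.12 ± 0.12 in adults and -0.75 ± 0.11 at P3. At P14 against P7 that ratio differed by -0.91 with overlapping libraries (exact permutation p = 0.2, two-sided). The other 9 of the 10 ratio comparisons did not overlap (each exact permutation p = 0.1, two-sided, 0.111 adjusted over the 10).

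Of the other tubulin genes, 7 were in the table and all 7 were tested, and Tuba3a, Tuba3b and Tubal3 were not analysed here. At adult against P3, 3 of the 7 rose, 1 fell and 3 were not called. Of all genes tested, 68.7% were called, 34.4% higher and 34.3% lower. Tubb4b, a class IVb β-tubulin also used in cilia, averaged 13306 ± 999 in adults and 7604 ± 678 at P3 (log2 fold change 0.81 ± 0.11 SE, limma adjusted p = 2.29e-05). Tuba1c, whose coding sequence is 97.9% identical to that of Tuba1b, averaged 1300.04 ± 69.7 in adults and 3559 ± 371 at P3 (log2 fold change -1.45 ± 0.13, limma adjusted p = 2.95e-07). The γ-tubulins, which nucleate microtubules, both rose: Tubg2 stood at 2017 ± 189 in adults and 355 ± 45.6 at P3 (log2 fold change 2.50 ± 0.10) and Tubg1 at 1395 ± 51.0 in adults and 833 ± 32.6 at P3 (0.74 ± 0.08). Tubd1 and Tube1, the δ- and ε-tubulins of centrioles, had log2 fold changes of 0.23 and 0.20 and were not called. With quantile normalization both were called higher, at 0.40 (limma adjusted p = 0.0101) and 0.53 (0.00219). Tubb1, the platelet β-tubulin, stood at 87.9 in P14 replicate 1, 242 in P21 replicate 1 and 94.1 in adult replicate 2, and between 3.91 and 16.9 in the other libraries. The 6 platelet and megakaryocyte markers summed to 1672 in P14 replicate 1 and 2374 in P21 replicate 1, the highest sums of all libraries. They summed to 941 in adult replicate 2, the highest of the adults. The P7 libraries had sums between 1345 and 1575, though Tubb1 was low in all of them. At P7 the library highest in Tubb1, replicate 6, had the lowest sum. The library highest in Tubb1 was highest in this sum at 4 of the 5 ages. All 3 libraries stood in the same order at 2 of the 5.

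Genes that fold, modify and bind tubulin were read from lists of known function. The folding list holds the CCT chaperonin, prefoldin and the tubulin cofactors, which together make assembly-competent dimers. Of its 21 genes, 3 rose and 7 fell between P3 and adults, with a median log2 fold change of -0.02, against -0.01 over all genes. The all-gene shares were 34.4% higher and 34.3% lower. At P7 10 of the 21 had risen above P3 and 0 fell, where 15.4% of all genes were higher and 12.8% lower. At P14 2 rose and 9 fell against P7, beside 24.3% and 23.8% of all genes. The chaperonin subunits Cct2 (log2 fold change -0.73 ± 0.07 SE) and Cct5 (-0.46 ± 0.06) were lower in adults than at P3, and the cofactor-associated GTPase Arl2 (0.96 ± 0.09) and the cofactor-like Tbcel (0.67 ± 0.07) were higher.

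Of the 23 tested enzymes and subunits that modify tubulin, 13 rose and 6 fell at adult against P3, with a median of 0.58, where 34.4% of all genes were higher and 34.3% lower. Ttll7, a polyglutamylase that prefers β-tubulin, rose 7.45-fold (log2 fold change 2.90 ± 0.13 SE, limma adjusted p = 4.18e-10), and Tpgs2, a subunit of a polyglutamylase complex, rose 1.99-fold. Ttl, the ligase that returns the tyrosine to α-tubulin, was 1.66-fold higher in adults, and Vash2, a carboxypeptidase that removes it, 5.08-fold lower (log2 fold change -2.34 ± 0.11, limma adjusted p = 6.26e-10). Most of the fall of Vash2 lay at P14 against P7 (-1.58 ± 0.11). In adults Vash2 was higher than at P21 by 0.46 ± 0.11.

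Microtubule-associated proteins rose for the most part. Of all genes tested, 34.4% were higher in adults than at P3 and 34.3% lower. Of the 18 microtubule-associated genes tested, 14 were higher and 2 lower, with a median log2 fold change of 0.74. Map1a, a microtubule-associated protein of mature axons and dendrites, rose most among them (log2 fold change 4.17 ± 0.29 SE, limma adjusted p = 2.74e-08), Map7d2 8.53-fold, Map1b 7.37-fold and Map6, a stabilizing protein, 3.26-fold. At P7 against P3, 1 of the 18 rose and 4 fell, where 15.4% of all genes were higher and 12.8% lower. At P14 against P7 9 rose and 1 fell, beside 24.3% and 23.8% of all genes. By limma 0 rose and 0 fell at P21 against P14, a step at which 9.29% of all genes were called. At adult against P21 15 rose and 0 fell, beside 25.4% and 24.1% of all genes. The P21 libraries behind both of these counts were spread. Map1a stood at 47993, 26314 and 57566 and Map1b at 32450, 18714 and 39369, lowest in P21 replicate 2. Map7 was instead highest in that library, at 999 against 707 and 806.

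Among 20 stathmins, severing enzymes and plus-end proteins, 12 rose and 4 fell at adult against P3 (median 0.82), where 34.4% of all genes were higher and 34.3% lower. The end-binding genes Mapre2 (2.38 ± 0.09) and Mapre3 (1.74 ± 0.08), Clip4 (1.91 ± 0.10) and the katanin-like Katnal1 (2.39 ± 0.14) were higher in adults than at P3 (log2 fold change ± SE). The 4 that fell were the end-binding gene Mapre1 (-0.96 ± 0.07), the severing enzymes Katna1 (-0.56 ± 0.09) and Spast (-0.66 ± 0.08), and Fignl1, which fell 9.17-fold. Mapre1 averaged 4917 ± 228 in adults and 9538 ± 289 at P3, and the end-binding genes thus did not all move one way. Of 21 motor genes, 19 rose, 0 fell and 2 were not called, with a median of 1.74. The kinesin light chains Klc2 (2.44 ± 0.10) and Klc1 (2.11 ± 0.09), the dynein intermediate chain Dync1i1 (2.41 ± 0.11) and the kinesin Kif3a (1.24 ± 0.06) were all higher in adults. At P14 against P7, 17 of the 21 motor genes rose and 0 fell, beside 24.3% and 23.8% of all genes. The 13 neuronal markers moved with these lists: 11 rose and 0 fell at adult against P3, with a median of 2.15, and their part in the list counts was not tested.

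**Figure D4:**
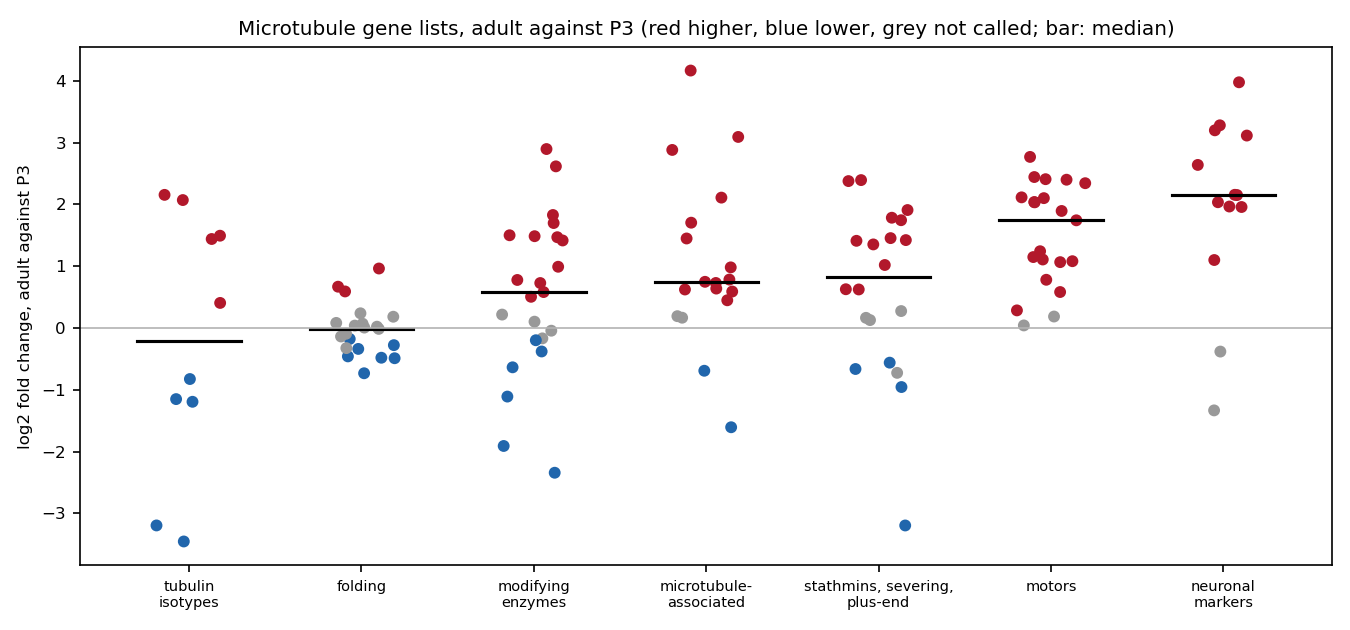
Log2 fold change of adult against P3 (y axis) for each tested gene of the 10 tubulin isotypes, 5 lists of microtubule genes and the neuronal markers (x axis); red points are called higher in adults, blue lower, grey not called, and bars are medians. The motor list has 19 red and 0 blue points with a median of 1.74, whereas the tubulin isotypes split into 5 red and 5 blue.

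Markers of the cell types in the dissection were set beside the isotypes. The summed level of the 13 neuronal markers was between 58586 and 93341 at P3, 81419 and 91673 at P7, 348260 and 352250 at P14, 326360 and 387910 at P21, and 457120 and 494240 in adults. The library highest in Tubb3 was also highest in this sum at 5 of the 5 ages, and in the mean log2 level of the markers at 3 of the 5. Relative to the mean log2 level of the list, Tubb3 was higher by 0.44 ± 0.11 in adults and by 0.99 ± 0.19 at P3, with no overlap between the libraries. Tubb2b was below the list mean by -4.26 ± 0.18 in adults and above it by 1.19 ± 0.15 at P3 (log2 difference ± SD, n = 3). Whether neuron number or RNA per neuron moved Tubb3 was not tested.

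The 8 oligodendrocyte markers were spread widely between the libraries of P7 and of P14, and Tubb4a followed their order. Their sum was 20152, 26442 and 11205 in the P7 libraries and 8309, 16109 and 48228 in the P14 libraries, the order in which Tubb4a itself was ranked at both ages. The library highest in Tubb4a was highest in these markers at 5 of the 5 ages, and all 3 libraries stood in the same order at 4 of the 5 by the sum and at 5 of the 5 by the mean log2 level. Tubb2b was also highest in the library highest in oligodendrocyte markers at 5 of the 5 ages. At P7 against P3, a step at which Tubb4a was called, 5 of the 8 markers rose and 0 fell. Their median log2 fold change was 2.28, and 15.4% of all genes were higher and 12.8% lower. At adult against P3, 4 of the 8 rose and 0 fell, with a median of 1.49, beside 34.4% and 34.3% of all genes. Mog, a myelin protein of oligodendrocytes, averaged 1223 ± 320 in adults, 1711 ± 1159 at P7 and 79.7 ± 60.5 at P3. Mobp, another, averaged 3790 ± 928 in adults, 3682 ± 2648 at P7 and 312 ± 245 at P3, and Opalin, a defining marker, was at or below 3 reads in all P3 libraries. The sum changed less, between 12814 and 17181 in adults and between 8760.4 and 13289 at P3, and most of it at P3 was Cldn11, at 8079 ± 1738, which was not called between these ages. Olig1 averaged 532 ± 93.6 in adults and 1040 ± 505 at P3, and Olig2 117 ± 19.0 in adults and 311 ± 129 at P3. Both means were thus lower in adults, though neither gene was called lower. The part of oligodendrocyte content in the values of Tubb4a was not tested.

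**Figure D5:**
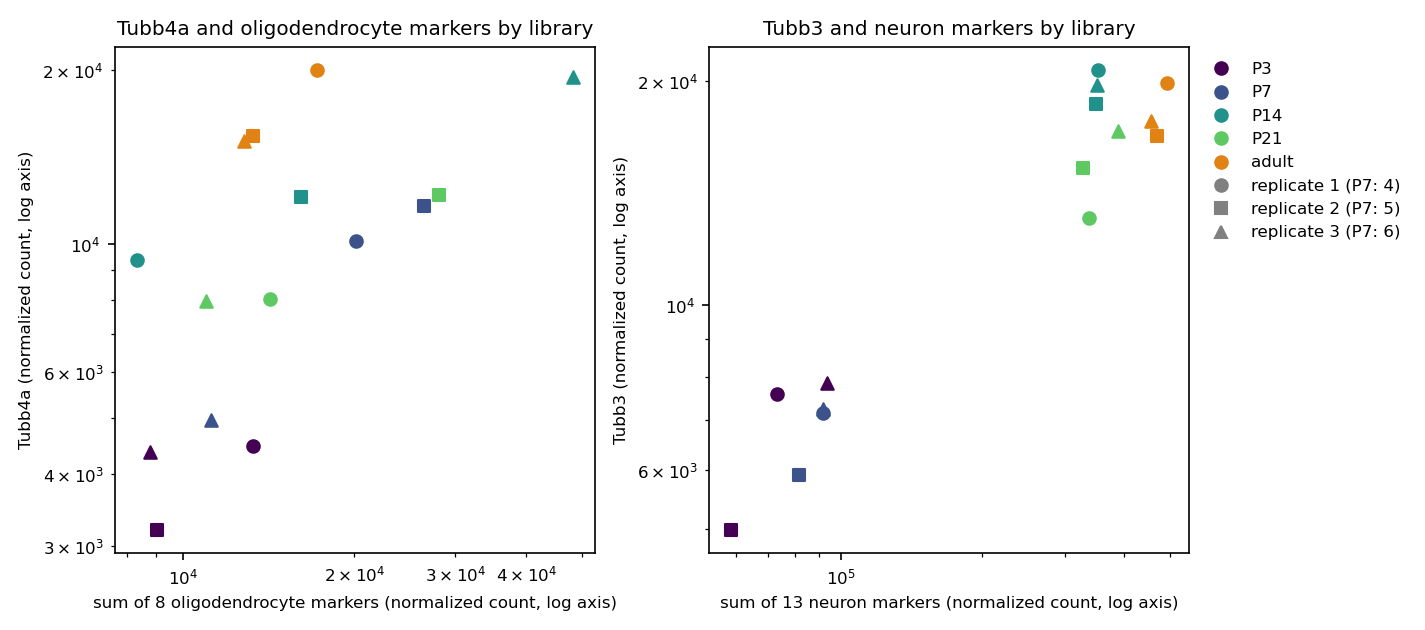
Left, Tubb4a against the sum of 8 oligodendrocyte markers, and right, Tubb3 against the sum of 13 neuronal markers, in normalized counts on log axes; each point is a library, coloured by age and shaped by replicate. P14 replicate 3 has the highest oligodendrocyte sum, 48228, and 19450 for Tubb4a, and the P14, P21 and adult libraries all lie at or above 326360 in the neuronal sum.

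Over the span from P3 to adults Tubb5 and Tubb6 fell, as did the markers of dividing cells, fibroblasts, bone and macrophages. The 8 markers of dividing cells summed to between 1495 and 1594 in adults and between 14267 and 15814 at P3, and 8 of the 8 fell. The 7 fibroblast markers summed to between 63071 and 72669 in adults and between 581340 and 886650 at P3, and 7 of the 7 fell. The bone list had 6 of 6 lower, with a median log2 fold change of -6.52, and the macrophage list 5 of 5, with a median of -2.27. Of all genes tested, 34.3% were lower in adults than at P3. By its median, the dividing list was lower along with Tubb5 at both steps up to P14 and differed from it in sign afterwards. At P7 against P3, where Tubb5 was called lower, the 8 dividing markers had a median log2 fold change of -0.76. Of the 8, 1 was called lower and 0 higher, a share near the 12.8% of all genes that were called lower. At P14 against P7, where Tubb5 was also called lower, 8 of the 8 fell, with a median of -1.93, beside 23.8% of all genes. At P21 against P14, where Tubb5 was called lower, the 8 dividing markers had a median log2 fold change of 0.35. Of the 8, 0 were called higher and 0 lower, beside 3.29% and 6% of all genes. Their sum was 7246 in P21 replicate 1, 3754.5 in replicate 2 and 3003 in replicate 3, and between 2331.5 and 4681 at P14. At adult against P21 8 of the 8 dividing markers fell, with a median of -2.18, beside 24.1% of all genes. The log2 fold change of Tubb5 at this step was 0.13, not called. Within an age, the library highest in Tubb6 was highest in the fibroblast list at 4 of the 5 ages, and the library highest in Tubb5 was highest in the dividing list at 2 of the 5. The 6 skeletal muscle markers, set beside Tuba8, summed to between 119 and 645 over all libraries. Of 5 tested, 2 fell between P3 and adults, where 34.3% of all genes were lower. Of the 6 muscle markers Myh4 was at 0 in P21 replicates 1 and 2, and Ckm in adult replicate 1. The part of these cells in the fall of Tubb5 and Tubb6 was not tested.

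The genes nearest in pattern to 6 of the isotypes were taken by Pearson r of log2(value + 1) over the 15 libraries among 15574 genes, as a description, since the points share age and scaling. Rab9b (r = 0.991), Gdap1l1 (0.984) and Ankrd29 (0.977) were nearest to Tubb3. Grm4 (0.987), Kdm1a (0.985) and Jpt2 (0.985) were nearest to Tubb2b, and Tppp (0.937), Gpr62 (0.936) and Gclc (0.935) to Tubb4a. Hadh (0.973), Fam89a (0.973) and Gng12 (0.972) were nearest to Tuba1a. Tmem38a (0.991), Ndfip2 (0.991) and Nap1l5 (0.991) were nearest to Tuba4a, and Cdk5 (0.967), Lin7b (0.955) and Zwint (0.950) to Tuba8. Gdap1l1 had log2 fold changes of -0.07 for P7 against P3 and 1.70 for P14 against P7, and unlike Tubb3 it was also called for adult against P21, at 0.50 (limma adjusted p = 0.014). Nap1l5 showed both steps of Tuba4a, with 1.12 for P7 against P3 and 1.59 for P14 against P7.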

How the data were processed

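Polyadenylated or total RNA selection was not given in the sources used here beyond a TruSeq library kit and total RNA extraction, per the labels. The deposited signal is, as the values show, the number of reads of each gene over a size factor of the library, so it is a normalized count and not a raw one. Dividing by the value of 1 read gave whole reads for 99.9% of positive values within a tolerance of 0.1. Per the submitters' processing notes, Partek, TopHat2 and DESeq2 were used with build mm10; counting rules, strand and annotation are not given in the sources used here. Strand use being unknown, reads of Tuba4a and of Stk16 on the other strand may not be separable.

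From these values, limma (3.58.1, R 4.3.3) with a trend and robust empirical Bayes was fitted to log2(value + 1) of all 15 libraries, for 16723 genes at 10 or more in at least 3 libraries. Adjusted p is Benjamini-Hochberg over those genes, two-sided, called under 0.05. Fold changes are the later age over the earlier on that scale. Each library is 1 mouse per the labels. Ratios and shares used exact permutation tests and GENCODE M21 exon lengths within the deposited gene span. Alternatives were quantile, TMM and per-million scaling, no filter and a filter of 50, pseudocounts of 0.1 and 10, edgeR (4.0.16) and DESeq2 (1.42.0) on recovered reads, only both ages in the fit, an Eif2s3y covariate, a replicate block and each library left out. Per-million scaling and the fit without P7 and without the block were added after seeing the data. The code was tested on simulated data. The members, lists and tests were chosen with earlier results of these data known. Named genes were the 10 members, every other tubulin gene in the table, up to 4 genes per list with the smallest joint adjusted p over the 5 ages, and the 3 genes nearest in pattern to each of 6 members. Outside this rule, and named after their values were seen, are Tubb2a-ps2 (a near-identical copy), Stk16 (an overlapping gene), the 4 stathmin, severing or plus-end genes that fell, and single marker genes.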

Additional observations from a re-analysis of the deposited data

How the results depend on the processing

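Of 2116 gene fold changes recomputed under alternatives, 2068 kept their side of the threshold, 37 lost a call, 10 gained one and 1 reversed (Tuba1b, adult against P3, -0.010 with quantile normalization). Among the 2068, 32 had the opposite sign with neither value called. The cause of the reversal was not tested. All 220 recomputed ratios and shares kept their direction. The 10 isotypes were called at adult against P3 in every fit except quantile normalization and per-million scaling, each without Tuba1b (9 called). Leaving out 1 library at a time gave 3080 to 6349 genes called for P7 against P3 (4703 with all), with 3 to 6 of the 10 isotypes. The lowest counts came without P7 replicate 5 (3080) and without P3 replicate 3 (3124), and 3 isotypes came without P7 replicate 5. For P21 against P14 the range was 631 to 1969 genes (1553 with all) and 1 to 3 isotypes, with 631 without P14 replicate 3 and 979 without P14 replicate 2. Adult against P21 kept 2 to 5 isotypes. P21 against P14 gave 2519 genes with DESeq2, 137 genes and 0 isotypes with only both ages in the fit, which has fewer samples, and 977 genes without P7 and without a block. Adult against P21 gave 5211 genes and 3 isotypes with only both ages. Replicate numbers showed no clear pairing of the libraries. The 18 same-numbered pairs had deviations correlated between -0.23 and 0.32, 5 of them over 0.1. Of 12 libraries, 4 correlated best with their own number. With 3 libraries per age this check cannot decide whether same-numbered libraries share a batch. With a replicate block P21 against P14 gave 645 genes and 1 isotype, since Tubb2a was not called (adjusted p = 0.0654). The lowest isotype value, 92.1 normalized counts of Tuba8 at P3, was above the floor of 3 reads.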
